A study of Mus musculus with 4 samples.

Results

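The expression of 9 genes of retinoid binding, metabolism and signalling was followed in the developing pontine nucleus of ICR mice. The genes were Crabp1, Crabp2, Lrat, Rara, Rarb, Rxrg, Cyp26b1, Aldh1a2 and Dhrs3, among 19938 genes named on the array. Each had 1 probe set carrying its symbol alone, so no choice between probe sets was needed. They were grouped with their levels on these arrays already known, and their counts and ranks are therefore descriptions.

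Tissue was dissected at embryonic day 17.5 (E17.5) and at postnatal days 1, 5 and 14 (P1, P5 and P14). The 4 ages were pools of 27, 16, 13 and 12 mice in that order, each hybridised to 1 Affymetrix array. No genetic change or treatment is given for any age, and the groups share the strain. With 1 pool and 1 array per age, no difference between ages could be tested, and the spread between animals was not measured.

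Retinoic acid is made from vitamin A. Retinol is stored as an ester or oxidised to retinaldehyde, which aldehyde dehydrogenases turn into retinoic acid, and enzymes of the Cyp26 family break retinoic acid down. Inside the cell it is carried by binding proteins, and in the nucleus it binds retinoic acid receptors, which pair with retinoid X receptors on DNA. In the embryonic hindbrain, from which pontine neurons derive, retinoic acid sets positional identity and turns on Hox genes. Pontine neurons send mossy fibres to the cerebellum.

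The array labelled P5 stood apart from the others and did not fall in place by age. Over the 10901 genes that reached a log2 signal of 8.41 on at least 1 array (the level filter, set at the median of all single-symbol values), Pearson's r with E17.5 was 0.968 for P1, 0.754 for the P5 array and 0.909 for the P14 array. Among 8 of the 9 retinoid genes, the P14 value lay between the values of P1 and the P5 array, and for 0 of the 9 did the P5 value lie between P1 and the P14 array. Of 2120 genes with a 2-fold range, 86.6% had a P14 value between their P1 and P5 values. Labels are kept as deposited, so that "the P5 array" and "the P14 array" mean the arrays labelled P5 and P14, every direction that involves them rests on those labels, and the range of each member is given with and without the P5 array.

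Of the 9 genes, 7 passed the level filter. Rarb did so with the lowest peak, 9.02 at E17.5, and only there, while Aldh1a2 (highest value 8.07) and Crabp2 (7.60) stayed below it. Where the lower of 2 levels lies under 8.41, the size of the difference is inexact and no fold is given. The standard deviation of a difference between arrays, taken between probe sets of the same gene over 645 genes, was between 0.10 and 0.18 on the log2 scale, depending on the pair of arrays. Levels less than 2 such standard deviations apart are called indistinguishable below. Probe sets of a gene share the RNA and the arrays, so this spread holds no error between pools or arrays. A wider gap is therefore not a tested difference. Barhl1, a homeobox factor of pontine neurons, stood at 12.23, 11.79, 10.83 and 11.61 on the E17.5, P1, P5 and P14 arrays. The filter was passed by 12 of 12 analysed pontine neuron markers, but also by 13 of 13 astrocyte and 13 of 13 myelin markers.

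Rarb is the textbook case of a receptor gene that answers to its own ligand, and its promoter is shown for that reason. RefSeq promoter windows (build GRCm38.p6, 250 bases before to 50 after a start site) were matched by symbol for 8 of the 9 genes; Crabp2 had none. Both strands were searched for the receptor hexamer AGGTCA, its variant AGTTCA, the further form GGGTCA and the form GGTTCA, and for 2 of these on the same strand with 5 bases between them, a direct repeat called DR5. Of the 8 genes, 1 held a DR5, which was Rarb; of all 27025 genes with a window, 0.115% held one. The 8 genes had 14 windows. Direct repeats with 1 or 2 bases between the hexamers were searched for as well, and none was found in these windows. Of all genes with a window, 0.263% and 0.311% held such repeats. The Rarb window lies at chr14:16575427-16575726 on the minus strand, and capitals mark the DR5, from base -53 to base -37 relative to the start. A single hexamer was found in windows of 3 of the 8 genes and of 46.9% of all genes with a window, and each DR5 holds a pair of them by construction. The second Rxrg window, at chr1:167618015-167618314 on the plus strand, is shown beside it as the other receptor that differed at least 2-fold between arrays, and its capitals mark single hexamers. Crabp1, which had the widest range of the 9 genes, is shown in lower case alone, since its window at chr9:54764498-54764797 on the plus strand held no hexamer.
Rarb: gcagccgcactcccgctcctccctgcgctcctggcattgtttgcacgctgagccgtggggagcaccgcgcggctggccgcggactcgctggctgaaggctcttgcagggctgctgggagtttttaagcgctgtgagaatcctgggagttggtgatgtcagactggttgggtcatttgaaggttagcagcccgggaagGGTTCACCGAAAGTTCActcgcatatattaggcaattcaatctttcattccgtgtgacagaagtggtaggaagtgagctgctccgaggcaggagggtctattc
Rxrg: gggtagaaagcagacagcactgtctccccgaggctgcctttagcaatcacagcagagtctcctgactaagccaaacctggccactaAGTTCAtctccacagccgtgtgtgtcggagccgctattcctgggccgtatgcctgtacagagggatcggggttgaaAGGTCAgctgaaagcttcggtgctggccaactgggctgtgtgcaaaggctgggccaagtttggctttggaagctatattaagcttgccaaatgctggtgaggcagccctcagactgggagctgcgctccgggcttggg
Crabp1: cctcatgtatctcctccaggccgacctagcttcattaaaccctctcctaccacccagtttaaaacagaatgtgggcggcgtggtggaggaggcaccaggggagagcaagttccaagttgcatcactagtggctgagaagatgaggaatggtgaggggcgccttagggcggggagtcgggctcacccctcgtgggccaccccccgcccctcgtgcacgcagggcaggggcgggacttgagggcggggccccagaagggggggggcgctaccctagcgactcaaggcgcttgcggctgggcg
These matches are letters in a window and were not measured as binding sites.

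Among the binding proteins, Crabp1 varied widely and Crabp2 hardly at all. Crabp1, which holds retinoic acid in the cytoplasm, had log2 signals of 13.36 at E17.5, 11.90 at P1, 9.0 on the P5 array and 11.72 on the P14 array. Its order was thus E17.5 highest and the P5 array lowest, with P1 and the P14 array indistinguishable between them (gap 0.18). Crabp1 was 2.75-fold lower at P1 than at E17.5 and 20.5-fold lower on the P5 array than at E17.5, a difference of −4.36, the most negative of the 9091 genes above the filter on both of these arrays. All 4 levels lay above the filter. Its range was 4.36 over the 4 arrays and 1.64 without the P5 array. In these pools, fewer cells of a type and less RNA per cell cannot be told apart.

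Crabp2, which delivers retinoic acid to receptors in the nucleus, stood at 7.52, 7.31, 7.60 and 7.41 on the E17.5, P1, P5 and P14 arrays. All neighbouring levels were indistinguishable by the spread of genes past the filter, although all 4 lay under it. Its range was 0.29 with the P5 array and 0.21 without it. The related carrier Fabp5 stood at 11.58, 11.67, 11.24 and 11.59 in the same order, within 2-fold throughout.

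**Figure D1:**
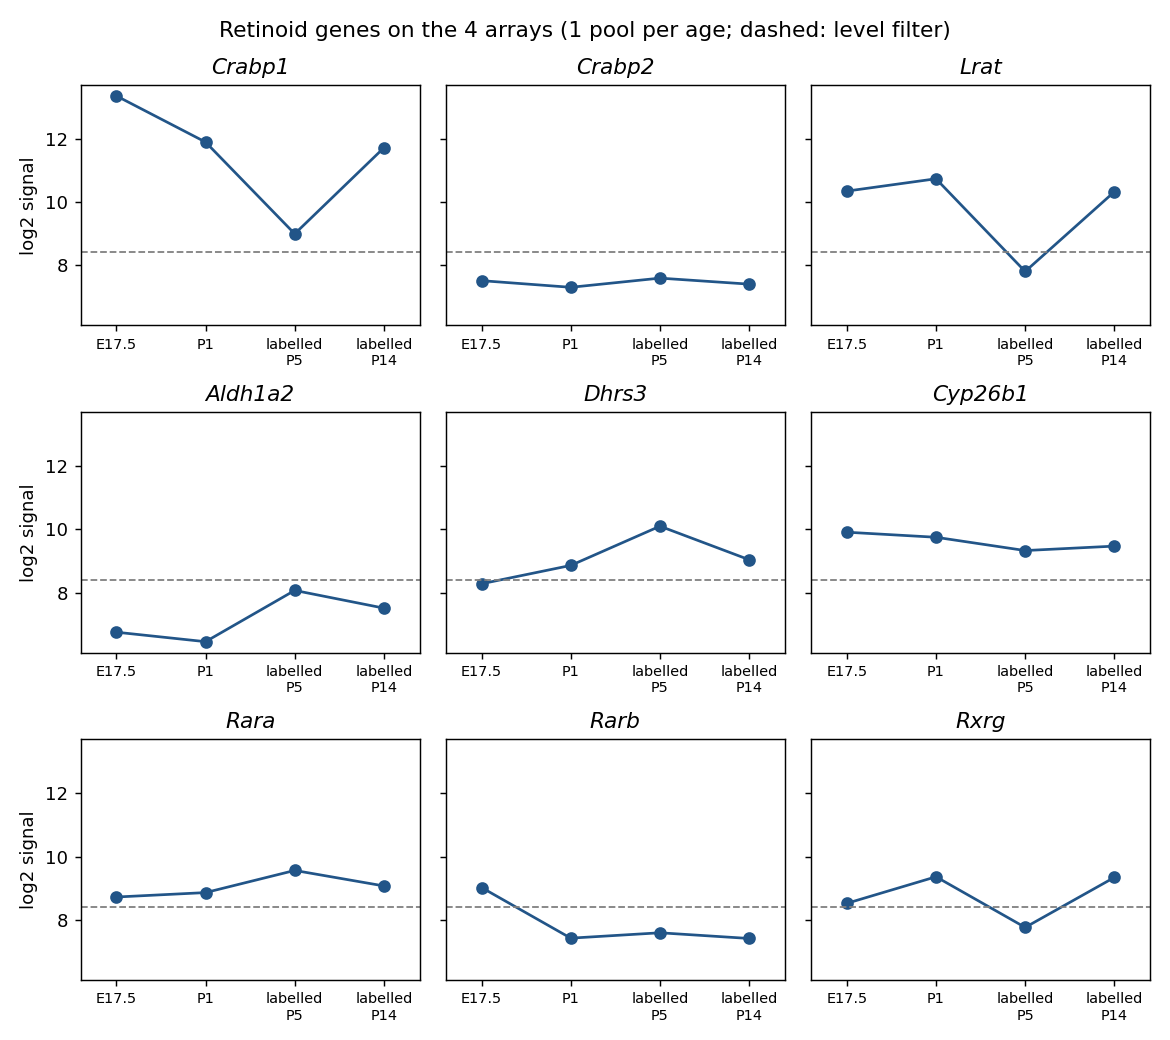
Log2 signal (vertical axis) of the 9 retinoid genes on the E17.5, P1, P5 and P14 arrays (horizontal axis), 1 point per array, with the level filter of 8.41 dashed. Crabp1, Lrat and Rxrg are lowest on the P5 array, Rara, Dhrs3 and Aldh1a2 highest there, and Rarb lies above the filter at E17.5 alone.

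Lrat stores retinol by joining it to a fatty acid. It measured 10.35 at E17.5, 10.74 at P1, 7.81 on the P5 array and 10.33 on the P14 array. The P5 array was therefore the low one, while E17.5 and the P14 array were indistinguishable (gap 0.02) and P1 lay 0.39 above E17.5. Its range was 2.93 with the P5 array and 0.41 without it.

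Dhrs3 reduces retinaldehyde back to retinol and so draws on the substrate for retinoic acid. It stood at 8.28, 8.86, 10.10 and 9.04 on the E17.5, P1, P5 and P14 arrays. The P5 array was highest, 2.36-fold above P1, and the P14 value was 2.08-fold below the P5 value. P1 and the P14 array were indistinguishable (gap 0.18), E17.5 was lowest, and the range was 1.82 with and 0.76 without the P5 array.

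Aldh1a2 makes retinoic acid from retinaldehyde and is the main such enzyme of the early embryo. It measured 6.75 at E17.5, 6.45 at P1, 8.07 on the P5 array and 7.51 on the P14 array. All gaps between neighbours exceeded 2 standard deviations, but that spread was taken from probe sets past the filter and all levels lay under it. The P1 level lay under the lower quartile of that array (6.53), so sizes are inexact. A separate floor of 6.87, the lower quartile of all single-symbol values over the 4 arrays, was also tried. With lower values set to it, Aldh1a2 differed by 0 between P1 and E17.5, in place of −0.30. Its range was 1.62 with the P5 array and 1.06 without it. The order of the 4 levels put both the P5 and P14 arrays above the perinatal ones.

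Cyp26b1, which breaks retinoic acid down, stood at 9.91, 9.75, 9.33 and 9.47 in the order E17.5, P1, P5 and P14. Its range of 0.58 was under 2-fold, and was 0.44 without the P5 array. E17.5 and P1 were indistinguishable (gap 0.16), as were the P14 and P5 arrays (gap 0.14), with a gap of 0.28 between the pairs. Its relatives Cyp26a1 and Cyp26c1 stayed under the filter on all 4 arrays, between 6.16 and 6.73 for Cyp26a1 and between 7.0 and 7.24 for Cyp26c1.

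Each of the 3 receptors took its own course. Rarb, a retinoic acid receptor, measured 9.02 at E17.5, 7.42 at P1, 7.59 on the P5 array and 7.41 on the P14 array. Its level was high at E17.5 alone, and the P1, P5 and P14 levels were indistinguishable. The difference between P1 and E17.5 was −1.60, with the P1 level under the filter, and the range was 1.61 both with and without the P5 array, so the pattern of Rarb does not rest on that array.

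Rara, the broadly expressed retinoic acid receptor, stood at 8.72, 8.86, 9.56 and 9.07 on the E17.5, P1, P5 and P14 arrays. The P5 array was highest and no pair of arrays was 2-fold apart. The range was 0.84 with the P5 array and 0.35 without it. E17.5 and P1 were indistinguishable (gap 0.14), and the gap of 0.21 between the P14 array and P1 was at the limit of 2 standard deviations.

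Rxrg, a retinoid X receptor with a narrower distribution than its relatives, measured 8.52 at E17.5, 9.36 at P1, 7.76 on the P5 array and 9.34 on the P14 array. P1 and the P14 array were indistinguishable at the top (gap 0.02), E17.5 lay 0.82 below the P14 array, and the P5 array was lowest. The difference between the P5 array and P1 was −1.60, and the range was 1.60 with that array and 0.84 without it.

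The other receptors of these families differed less between arrays than Rarb and Rxrg. Rarg stood at 8.41, 8.52, 8.35 and 8.63, Rxra at 8.32, 8.19, 8.79 and 8.19, and Rxrb at 9.69, 9.71, 9.70 and 9.51, in the order E17.5, P1, P5 and P14. None of these 3 was 2-fold apart between any pair of arrays. On the P5 array against P1, the difference was 0.60 for Rxra and −1.60 for Rxrg, and it was 0.70 for Rara, 0.17 for Rarb and −0.17 for Rarg.

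Around birth, Rarb and Crabp1 were the members of the group that differed most. At P1 against E17.5, 2 of the 9 genes were at least 2-fold lower (a difference of 1 or more on the log2 scale) and 0 of 9 higher. In that pair 0.275% of the genes past the filter lay at least 2-fold lower and 0.826% higher. Without the filter, as in the count of 9, these shares were 0.166% and 0.502%. With the filter set on the mean of the 4 arrays, Rarb drops out and 1 of the 9, Crabp1, is counted as lower. Crabp1 stood at 11.90 at P1, against 13.36 at E17.5 (difference −1.46), and Rarb at 7.42 against 9.02. The nearest to 2-fold in the other direction were Rxrg, at 9.36 against 8.52 (0.84), and Dhrs3, at 8.86 against 8.28 (0.58). The median of all genes in this pair was −0.06. This comparison uses neither of the arrays whose labels are in doubt.

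On the P5 array against P1, the genes parted in both directions. Crabp1 (−2.90, 7.46-fold lower), Lrat (−2.93) and Rxrg (−1.60) were at least 2-fold lower, that is 3 of 9, and Dhrs3 (1.24) and Aldh1a2 were at least 2-fold higher, that is 2 of 9. The shares of genes past the filter were 3.94% lower and 8.96% higher. Aldh1a2 lay under the filter, and without it 2.43% of all 19938 genes were lower and 5.52% higher. Crabp1 had the 3rd lowest difference of the 9188 genes above the filter on both arrays; Lrat and Rxrg lay under it on the P5 array and are not ranked. Against E17.5, the P5 array held 3 of 9 genes at least 2-fold lower (Crabp1, Lrat and Rarb). The share of genes past the filter was 5.5%, or 3.37% without the filter. It held 2 of 9 higher (Aldh1a2 and Dhrs3, against 11.3%, or 7.04% without the filter).

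The P14 array differed little from P1 in these genes. Of the 9, 0 were at least 2-fold lower and 1, Aldh1a2, was at least 2-fold higher, at 7.51 on the P14 array against 6.45 at P1. Both levels lie under the filter, and with low values set to the floor of 6.87 the difference of 1.06 became 0.64, under 2-fold. The other 8 differed by between −0.41 and 0.21. In that pair 0.101% of genes past the filter were lower and 1.37% higher, or 0.0853% and 0.823% without the filter. Against E17.5, Crabp1 (−1.64, 3.12-fold lower) and Rarb (−1.61) were at least 2-fold lower on the P14 array, where 1.19% of genes were. In the other direction 0 of 9 were higher, where 4.55% were. Without the filter these shares were 0.742% and 2.73%.

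On the P14 array against the P5 array, Crabp1 (2.72, 6.59-fold higher), Lrat (2.52) and Rxrg (1.58) were at least 2-fold higher, and Dhrs3 (−1.06) at least 2-fold lower. The shares of genes were 2.16% and 4.5%, or 1.3% and 2.75% without the filter. Crabp1 had the 2nd highest difference of the 9432 genes above the filter on both arrays. Both pairs with the P5 array share that array, so these values and those against P1 are not separate evidence.

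**Figure D2:**
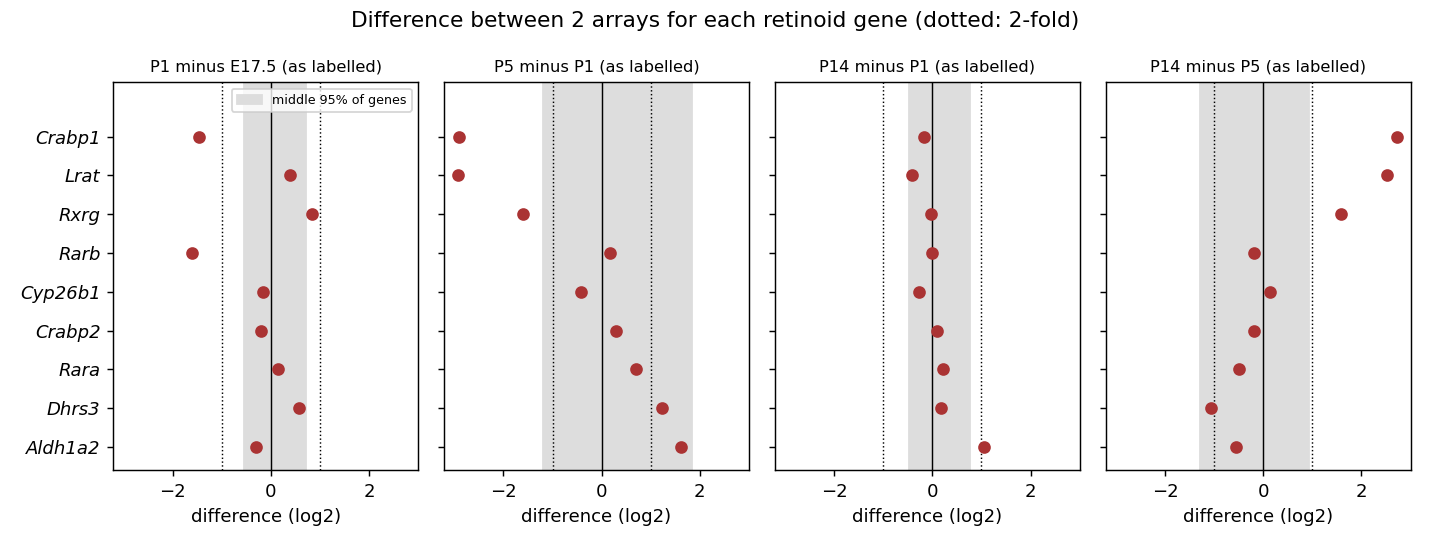
Difference in log2 signal (horizontal axis) of each of the 9 genes (rows) in 4 pairs of arrays, as labelled; grey marks the middle 95% of the 10901 genes and dotted lines 2-fold. Crabp1 and Rarb lie beyond −1 at P1 minus E17.5, and Crabp1, Lrat and Rxrg beyond −1 at P5 minus P1.

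Of 63 other genes listed for retinol transport, synthesis, binding, breakdown, receptors, coregulators and targets, 58 were analysed here and 31 passed the filter. At P1 against E17.5, 1 of the 31 was at least 2-fold lower, Hoxa5, and 0 were higher, where 1.1% of all genes past the filter were 2-fold apart; the median was −0.01, against −0.06 for all genes. On the P5 array against P1, 3 were higher and 1 lower, where 12.9% of all genes were 2-fold apart, so the list did not stand out from genes in general; its median was −0.10 against 0.05. On the P14 array against P1, 1 was higher and 0 lower, where 1.47% of all genes were 2-fold apart, with a median of 0.00 against −0.01.

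Of the genes for synthesis, 6 of 17 passed the filter and 1, Aldh1a1, was at least 2-fold apart. Aldh1a1, which like Aldh1a2 makes retinoic acid, measured 7.74 at E17.5, 8.26 at P1, 10.18 on the P5 array and 9.44 on the P14 array. It was thus higher on both the P5 and P14 arrays than at E17.5 and P1. Aldh1a2 was also higher on those arrays, but stayed under the filter on all 4. The third enzyme, Aldh1a3, stood at 7.58, 7.64, 7.36 and 7.62, under the filter on all 4 arrays. Rdh10, which makes retinaldehyde from retinol, stood at 8.66, 8.65, 9.01 and 8.75, within 2-fold. Among the genes for retinol transport, 2 of 12 passed the filter and 0 were 2-fold apart. The plasma carrier Rbp4 (7.02, 7.05, 7.40 and 7.82), the uptake receptor Stra6 (7.90, 8.08, 8.06 and 8.38) and the retinol-complex carrier Ttr (6.43, 6.59, 5.93 and 6.36) stayed under it.

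Genes described as targets of retinoic acid did not share 1 direction. Beside the members, 9 of 15 passed the filter. Hoxa5, a positional homeobox gene, stood at 9.63, 8.56, 8.76 and 7.95 on the E17.5, P1, P5 and P14 arrays, highest at E17.5 as Rarb was. Hoxb5, another Hox gene, stood at 8.94, 8.15, 9.21 and 8.61, and Rarres1, a gene named for its response to retinoids, at 7.51, 7.91, 9.05 and 8.46. Meis2, a homeobox partner of Hox proteins, stood at 11.47, 10.71, 9.68 and 10.39; its difference on the P5 array against P1 was −1.03, and fell short of 2-fold once each array was centred on the common median.

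**Figure D3:**
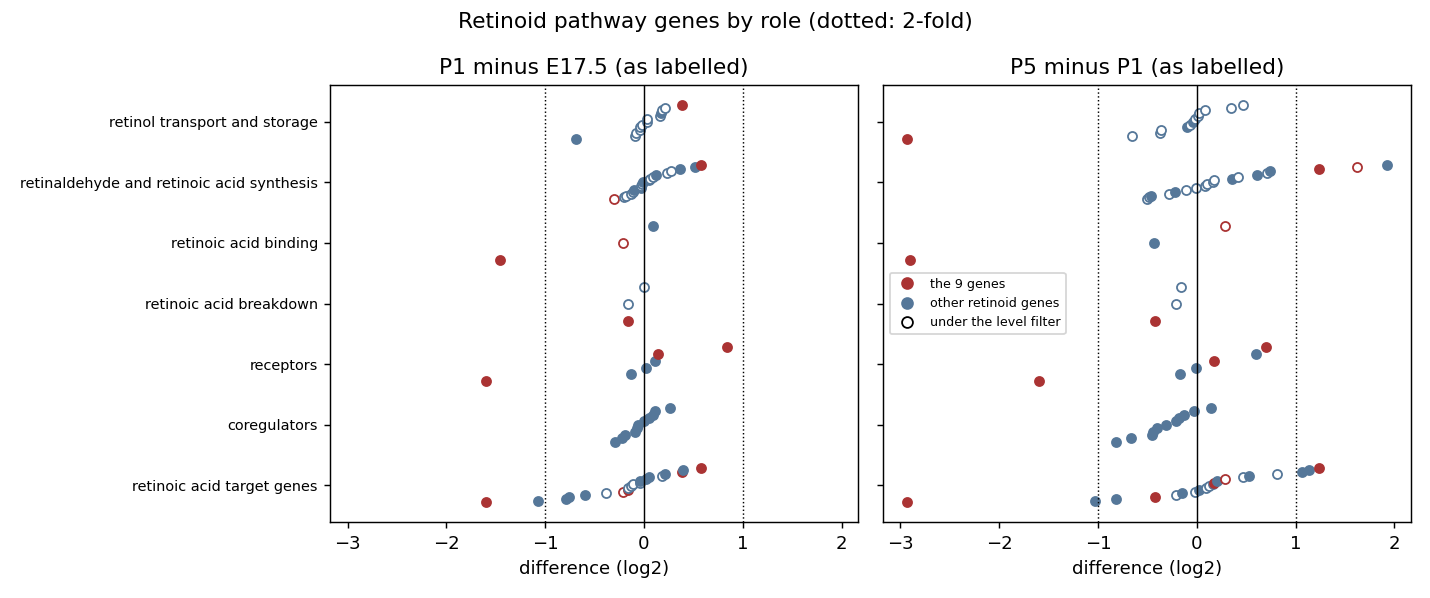
Difference in log2 signal (horizontal axis) of retinoid genes by role (rows), P1 minus E17.5 on the left and P5 minus P1 as labelled on the right; red points are the 9 genes, blue points the others, open points lie under the level filter, and a gene with 2 roles appears in both rows. Crabp1 and Rarb lie to the left of the other genes of their roles in the left panel, as do Crabp1, Lrat and Rxrg in the right panel, where Aldh1a1 is the furthest to the right.

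Markers of several cell types differed along with these genes, and their part in the results was not tested. On the P5 array, where Crabp1, Lrat and Rxrg were low, the median difference of immature neuron markers against P1 was −1.45, and 10 of the 13 that passed the filter lay at least 2-fold lower. The markers Dcx and Sox11 of that list lay far above the filter at P1, at 12.88 and 11.75. For pontine neuron markers the median was −0.56; 4 of 12 were at least 2-fold lower and 2 higher. At P1 against E17.5, where Crabp1 differed by −1.46, the immature neuron median was −0.09 with 2 of 13 lower, and GABAergic and glycinergic markers had a median of −0.89 with 1 of 4 lower. List medians for immature neurons were 11.43 on the P14 array and 12.48 at E17.5.

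Aldh1a2 was read beside markers of the meninges and fibroblasts, cells in which this enzyme is known to be made. Of 14 markers, 8 passed the filter, and their median difference against P1 was 1.02 on the P5 array, with 4 of 8 at least 2-fold higher, and 1.05 on the P14 array, again with 4 of 8 higher. The proteoglycan Dcn stood at 7.25, 7.16, 9.35 and 9.82 on the E17.5, P1, P5 and P14 arrays, and the transporter Slc6a13 at 7.64, 7.41, 9.64 and 9.62. Both were higher on the P5 and P14 arrays than at P1, as was Aldh1a2, although Aldh1a2 stayed under the filter. On the P14 array against the P5 array, the median difference of the 8 markers was 0.395, whereas that of Aldh1a2 was −0.56. That contrast depends on the filter, since the median difference of all 14 markers was 0.035. The median level of all 14 was 8.665 on the P5 array and 8.165 on the P14 array, lower on the latter as for Aldh1a2. The collagen Col1a1 stood at 8.82, 8.77, 9.15 and 9.72. Mural cell markers had a median difference of 0.70 on the P5 array and 0.27 on the P14 array, with 1 of 7 at least 2-fold higher on each. Astrocyte markers (1.14 and 0.53) and microglia markers (0.80 and 0.51) were also higher than at P1 on both arrays, so this shape was not particular to the meninges.

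Dhrs3 and Rara were highest on the P5 array, where the medians of several marker lists were also highest, glial ones among them. Against P1, myelin markers had a median difference of 4.21 there, with 13 of 13 at least 2-fold higher, and astrocyte markers 1.14, with 7 of 13 higher. Mog, a myelin surface protein, stood at 7.18, 7.39, 12.91 and 8.27, and Gfap, the astrocyte filament, at 7.19, 9.89, 12.09 and 11.91. Some astrocyte markers were highest elsewhere, such as Aldh1l1 at 9.57, 10.37, 10.27 and 10.46. Endothelial and mural cell medians were also highest on the P5 array, at 9.36 and 9.33. The pontine neuron marker Slc17a7 was too, at 8.16, 9.38, 12.90 and 11.36, but its list was not. The pontine neuron median was lowest on the P5 array, at 11.455, 10.87, 10.225 and 11.045 on the E17.5, P1, P5 and P14 arrays. Of 10 choroid plexus markers, 1 passed the filter. This was Sostdc1, a secreted signalling inhibitor, at 10.00, 10.66, 7.83 and 9.54 on the E17.5, P1, P5 and P14 arrays, highest at P1 and lowest on the P5 array as Lrat was. The folate receptor Folr1 of that list lay at 7.0 to 7.78.

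**Figure D4:**
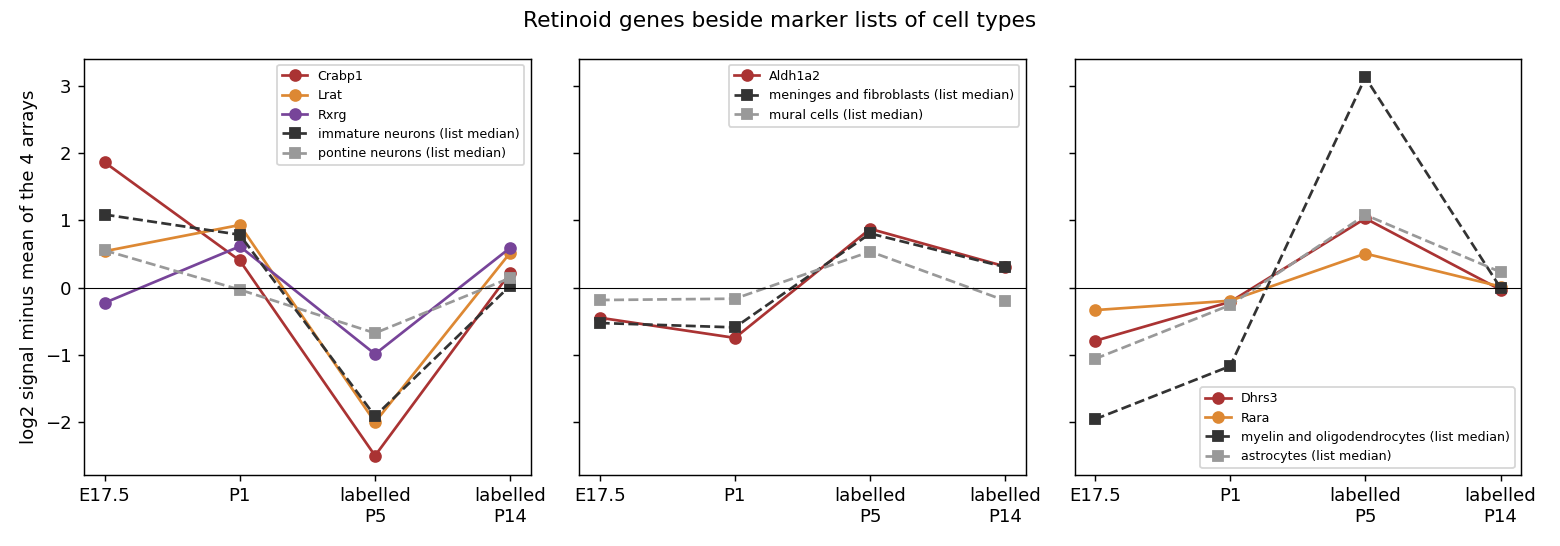
Log2 signal minus the mean of the 4 arrays (vertical axis) on the E17.5, P1, P5 and P14 arrays for retinoid genes (solid) and medians of marker lists (dashed). The dips of Crabp1, Lrat and Rxrg lie on the same array as that of immature neuron markers. Aldh1a2 and the meningeal median both have the P5 and P14 arrays above P1 and E17.5, a shape that the astrocyte and myelin medians share. Medians are over all analysed markers of a list, including those under the filter.

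The genes with the nearest time course were found as the smallest root mean square difference of mean-centred log2 values over the 4 arrays, for the 6 members with a 2-fold range. Near genes were counted within a fixed 0.2, which is harder to meet for a gene of wide range, so counts are not comparable between members. Crabp1, with the widest range, had no gene that near. Its closest were the neuronal transcription factor Sox11 (0.41), the RNA-binding protein Mex3a (0.45) and the axon guidance protein Draxin (0.47), and 0 genes lay within 0.2. Lrat had 6 genes within 0.2, led by the calcium buffer Calb1 (0.14), then Zfp804b (0.17) and the kinase Stk32b (0.20). Calb1 stood at 9.66, 9.99, 7.40 and 9.60 on the E17.5, P1, P5 and P14 arrays, the same order as Lrat, lowest on the P5 array and highest at P1.

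Rxrg had 12 genes within 0.2, led by the postsynaptic scaffold Shank2 (0.11), the Wnt pathway regulator Nkd2 (0.12) and the glutamate receptor partner Shisa6 (0.13). Rarb had 2, the ubiquitin ligase Pdzrn3 (0.08) and the corepressor Tle1 (0.19), with Trp53inp1 next (0.21). Pdzrn3 stood at 10.21, 8.78, 8.99 and 8.66, high at E17.5 alone as Rarb was. Dhrs3 had 211 genes within 0.2, led by the motor protein Myo6 (0.02), Pstpip2 and Pir (0.05 each). Aldh1a2 had 53, led by the calcium channel subunit Cacna2d3 (0.05), the membrane skeleton protein Epb41l3 (0.11) and the coactivator Ppargc1a (0.12). Without the P5 array, the difference from the gene nearest over 4 arrays was 0.37 for Crabp1, 0.02 for Lrat, 0.08 for Rxrg, 0.07 for Rarb, 0.02 for Dhrs3 and 0.02 for Aldh1a2.

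**Figure D5:**
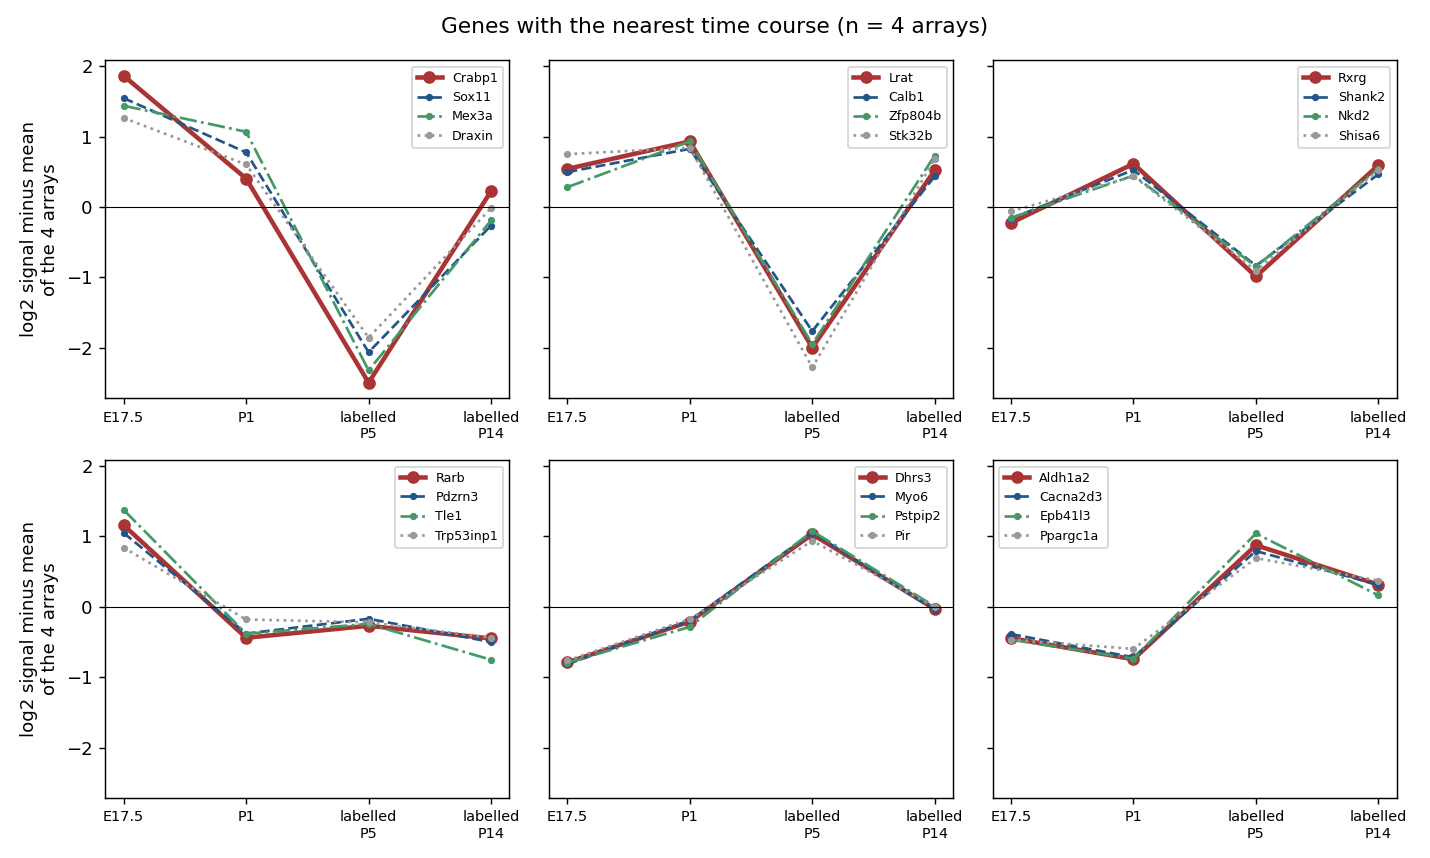
Log2 signal minus the mean of the 4 arrays (vertical axis) on the E17.5, P1, P5 and P14 arrays for 6 retinoid genes (red) and the 3 genes with the nearest time course to each. Dhrs3 is overlaid by its neighbours, whereas Crabp1 has a higher E17.5 value and a lower P5 value than each of its own.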

How the data were processed

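The authors deposited 1 normalised log2 signal for each probe set and array. Affymetrix Expression Console was used, per the submitters' processing notes; how signals were summarised and normalised, and the software version, is not given in the sources used here. That the scale is log2 follows from the values (1.84 to 14.72). Array medians ran from 7.89 to 7.94, and no 2 arrays held identical values. Of 35556 probe sets, the platform's gene table gave 21789 a single symbol. Where a gene had several, the probe set of highest mean was taken. Differences are the later label minus the earlier, and with 1 array per age genes were counted by size, with no test. Promoter sequences and symbols come from RefSeq tables of GRCm38.p6. Scripts ran in Python 3.11.15 with pandas 2.3.3 and were tested on simulated data.

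The members and the gene lists were chosen with earlier results of these data known. Listed genes past the filter were named beside them if at least 2-fold apart in a main pair, and a set of retinoid and marker genes whatever their values. The 3 nearest time courses to each member with a 2-fold range were also named. These left out predicted, unnamed and small RNA genes and the olfactory and vomeronasal receptor genes. Alternatives were 2 other scalings, the mean of a gene's probe sets, a floor on low values and 2 other level filters. A few listed genes are not reported here.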

Additional observations from a re-analysis of the deposited data

How the results depend on the processing

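No paired analysis was possible because each age has 1 array. Centring each array on the common median and quantile normalisation moved the member differences by at most 0.05 and 0.075 and changed no count of members; the mean over probe sets could not change them, since each member has 1. With each array centred, 0 other retinoid genes in place of 1 were at least 2-fold lower on the P5 array against P1. Among the 7 members past the filter, 1 was at least 2-fold higher on the P5 array against P1, 1 against E17.5 and 0 on the P14 array against P1; without a filter, as in the counts of 9 given above, Aldh1a2 is added and these are 2, 2 and 1. With the filter set on the mean of the arrays, which drops Rarb, 1 member in place of 2 was at least 2-fold lower at P1 and on the P14 array against E17.5, 2 in place of 3 on the P5 array against E17.5, and the other retinoid genes that were higher on the P5 array numbered 1 in place of 2 against E17.5 and 2 in place of 3 against P1. With low values set to the floor of 6.87, Aldh1a2 differed by 0.64 on the P14 array against P1, under 2-fold. Of 54 member differences, 3 changed sign under a scaling, none of them over 0.02 in size: on the P14 array, Rarb against P1 was 0.01 in place of −0.01 when centred, and under quantile normalisation Rxrg against P1 was 0.01 and Lrat against E17.5 0.0475, each in place of −0.02.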

Other observations

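Coregulators of the retinoic acid receptors varied little. Of 13 listed, 11 were analysed and 11 passed the filter, with 0 at least 2-fold apart in any pair of arrays. Their median difference was −0.31 on the P5 array against P1, where the median of all genes was 0.05, and −0.06 at P1 against E17.5. The corepressor Nrip1, which is also a target of retinoic acid, had the most negative difference on the P5 array against P1, at 9.60 against 10.42.

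Slc18a3, the vesicular acetylcholine transporter, was looked at after its values were seen because it lay close to the course of Lrat. It stood at 10.01, 9.93, 7.41 and 10.00 on the E17.5, P1, P5 and P14 arrays, while Chat, the enzyme that makes acetylcholine, stood at 8.17, 8.14, 7.22 and 8.19, under the filter on all 4. Of the 7 cholinergic and motor neuron markers analysed, 3 passed the filter: Slc18a3, the choline transporter Slc5a7 at 10.31, 10.27, 8.40 and 10.12, and the guidance ligand Slit3 at 9.25, 9.66, 11.03 and 10.55. On the P5 array against P1, Slc5a7 differed by −1.87 in the direction of Slc18a3, and Slit3 by 1.37 in the other.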
